A study of Mus musculus with 4 samples.

Results

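The Crhr2 Dach2 neurons of the mouse lateral septum were taken as the nuclei in which transcripts of both the receptor gene Crhr2 and the transcription factor gene Dach2 were counted. A nucleus was a member when it had at least 1 unique molecular identifier (UMI, 1 counted transcript molecule) of Crhr2, at least 3 of Dach2, at least 1 of Gad1 and Gad2 together and fewer than 3 of St18. It also had between 200 and 6000 detected genes, under 2% mitochondrial UMIs and at least 2000 UMIs. Of 58372 barcodes in the 4 libraries of the series, 48940 were within the limits on genes, mitochondrial UMIs and total UMIs, and 603 were members (1.03% of all barcodes). The libraries C57J 1, C57J 2, nude and BALB/c held 135, 118, 165 and 185 of them, and values are given in that order throughout.

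The study compared single nuclei of the lateral septum (LS) region between C57BL/6JNifdc mice (here C57J, 2 libraries), BALB/c nude mice (1 library), which lack a functional thymus and are deficient in T cells, and BALB/c mice (1 library). All mice were males labelled as 6 to 8 weeks old, each library held the tissue of 3 mice pooled, and the labels name no treatment. C57J 1 was labelled batch 1 and the other 3 libraries batch 2. Since nude and BALB/c shared the BALB/c strain background, they were set jointly against C57J where a comparison across mice needed more than 1 library on each side. The 3 pooled mice cannot be separated, so a p-value measures the spread between libraries only.

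Corticotropin-releasing factor receptor 2, the product of Crhr2, is a G protein-coupled receptor that answers to the urocortins and, more weakly, to corticotropin-releasing factor, and mostly raises cAMP. The lateral septum is among the brain regions known for it, and septal neurons with this receptor are known from work on stress and anxiety. Most lateral septum neurons are GABAergic projection neurons, which make their transmitter with the glutamate decarboxylases encoded by Gad1 and Gad2. Dach2 encodes a nuclear protein of the Dachshund family, a partner of the Eya proteins in development. On GRCm38 (mm10), Crhr2 lies at chr6:55090049-55133016 on the minus strand and Dach2 at chrX:113297510-113836386 on the plus strand.

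The libraries held 102939576, 72912922, 82169638 and 125998527 UMIs over 17025, 14092, 14697 and 12558 barcodes. BALB/c stood apart in depth, with a median of 8836 UMIs per barcode against 5081, 4429 and 4883 in the others, and 215 of its barcodes exceeded 6000 genes against 28, 2 and 9. Between 29 and 63 barcodes were shared by any pair of libraries. Members had medians of 8352, 7772, 8271 and 13955 UMIs, close to the 9083, 7467, 7394 and 13358 of the other lateral septum neurons of the same libraries. Summed over its members, each library gave 1293232, 987111, 1521474 and 2741433 UMIs. A doublet score marked 22, 17, 34 and 14 members (16.3%, 14.4%, 20.6% and 7.57%) as predicted doublets, compared with 12.9%, 10.6%, 11.6% and 10.4% of the other lateral septum neurons.

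The members were chosen by their UMI counts of Crhr2, Dach2, Gad1, Gad2 and St18, so these counts are a description. Crhr2 had a median of 1 UMI per member and exactly 1 in 319 of the 603, so most of the receptor calls rested on a single molecule, whereas Dach2 had a median of 10 and reached 69. Among nuclei of the oligodendrocyte type, which should lack Crhr2, 1.32%, 1.14%, 0.775% and 0.814% had a Crhr2 UMI, at medians of 2878, 2640, 2560 and 3807 UMIs. At the Dach2 limit, 19, 19, 26 and 13 Crhr2 nuclei had 2 UMIs of Dach2 and stayed out, whereas 14, 10, 17 and 14 had 3 and came in. A further 12, 9, 18 and 36 nuclei that passed the other limits were left out for 3 or more UMIs of St18.

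The members carried neuronal and septal markers that the rule did not use. Trpc4, a cation channel gene that marks lateral septum neurons in the study, was counted in 589 of 603 members (97.7%) and reached 673, 685, 720 and 704 counts per 1000000 UMIs of the summed nuclei (CPM). The neuronal genes Snap25, Rbfox3 and Syt1 summed to 4530, 4576, 4427 and 4352 CPM in members and to 4886, 4557, 4931 and 4781 CPM in other lateral septum neurons. The glutamatergic markers summed to between 4.74 and 10.5 CPM. The medial septum markers, led by Elavl2, summed to 33.3, 76.99, 75.6 and 24.1 CPM in members against 108, 112, 142 and 187 CPM in the other lateral septum neurons, and the striatal markers to between 67.1 and 109 CPM against between 112 and 157 CPM.

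RNA of glia was counted in both populations. The 7 oligodendrocyte markers summed to 483, 427, 277 and 285 CPM in members and to 430, 426, 294 and 279 CPM in other lateral septum neurons. The 6 astrocyte markers, led by Slc1a3, summed to 141, 80.0, 103 and 84.6 CPM in members and to 140, 111, 113 and 86.1 CPM in the others. None of the 7 oligodendrocyte, 6 astrocyte, 5 microglia or 2 vascular markers tested was called between members and other lateral septum neurons, by edgeR as described next or by DESeq2, and 1, 0, 1 and 1 of them had an unadjusted edgeR p under 0.05. The 3 markers of glial precursors, led by Vcan, summed to 23.2, 16.2, 23 and 10.6 CPM in members and to 30.4, 23.9, 30.5 and 25.8 CPM in the others. Vcan was the 1 of these 3 that was called, lower in members (log2 difference -0.73, SE 0.20, edgeR adjusted p = 0.01053), and it was lower in members in the next 2 comparisons of populations too. The part of RNA from such cells in the results was not tested.

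**Figure D1:**
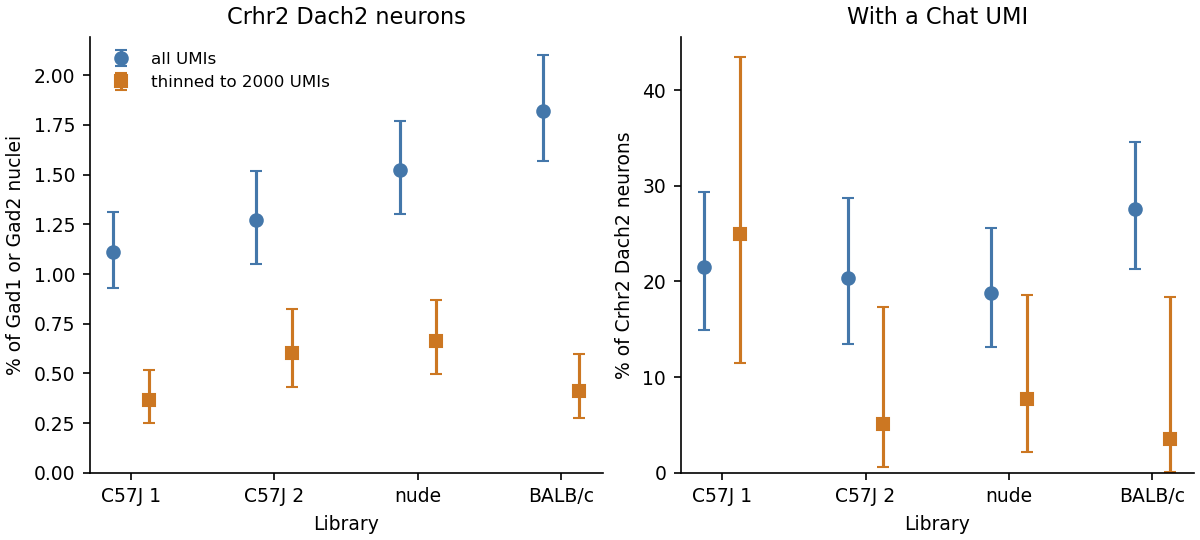
Left, share of Crhr2 Dach2 neurons among nuclei with a UMI of Gad1 or Gad2 in each library (vertical axis, percent); right, share of those neurons with a Chat UMI (percent). Points are 1 library each and bars 95% Clopper-Pearson intervals; circles use all UMIs and squares nuclei thinned to 2000 UMIs. The circles rise from 1.11% in C57J 1 to 1.82% in BALB/c, and the squares of BALB/c lie below those of nude.

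As a share of all nuclei with a Gad1 or Gad2 UMI, the members amounted to 1.11% (95% Clopper-Pearson interval 0.930 to 1.31), 1.27% (1.05 to 1.52), 1.52% (1.30 to 1.77) and 1.82% (1.57 to 2.10). Both libraries of BALB/c background lay above both C57J libraries, with a log2 ratio of mean shares of 0.49, and the exact permutation test gave a two-sided p of 0.3333, the smallest that 2 against 2 libraries allow. The libraries also stayed apart among nuclei with at least 4000 UMIs (log2 ratio 0.42), without predicted doublets (0.52), with 5 or more Dach2 UMIs (0.61) and with 2 or more Crhr2 UMIs (0.77). With every nucleus thinned to 2000 UMIs and Dach2 required once, which changes depth and the Dach2 limit together, the shares were 0.365%, 0.605%, 0.663% and 0.413%, the groups overlapped, and the log2 ratio was 0.15 with an exact permutation p of 0.667. Among all nuclei with at least 3 Dach2 UMIs that met the other limits, 39.4%, 38.7%, 38.8% and 50.1% had a Crhr2 UMI, the highest share being in the deepest library.

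Members were first compared with 16213 other lateral septum neurons, which had Gad1 or Gad2, at least 3 UMIs of Trpc4 and no UMI of Crhr2 or Dach2. Counts were summed per library and population, and the fit held the library constant. A gene was called when its adjusted p (edgeR quasi-likelihood test, Benjamini-Hochberg) was under 0.05 and its log2 difference exceeded 0.5 in size. Of 16313 genes outside the rule, 781 were higher in the Crhr2 Dach2 neurons (4.79%) and 1189 lower (7.29%), and the median log2 difference of all tested genes was -0.03. The rule was drawn up with clusters of these same nuclei known, so these differences describe the gated nuclei and are not independent evidence of a separate cell type.

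Among called genes with a mean of at least 10 CPM, the gene with the largest rise was Lhx2, which encodes a LIM homeodomain transcription factor and lies at chr2:38339281-38369733 on the plus strand. It was at 4.89, 3.12, 3.58 and 2.89 CPM in other lateral septum neurons and at 50.3, 59.8, 49.9 and 78.8 CPM in members. All 4 member values stood far above those of the others, and the log2 difference was 4.17 (SE 0.19, edgeR adjusted p = 1.255e-12). A UMI of Lhx2 was found in 28.9%, 35.6%, 34.5% and 54.6% of members and in 3.97%, 1.42%, 2.33% and 3.42% of oligodendrocyte-type nuclei, whose depth was lower. Antisense genes overlap Lhx2, and strand use in the counting was not stated in the sources used here, so its reads could include theirs. The same holds for Chat, Chrne, Tafa1, Lama3, Grid2ip, Tmem132d, Nr3c2, Adcy8, 4921539H07Rik and other genes named here with overlapping gene models.

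Gpr139, at chr7:119140747-119184603 on the minus strand, encodes an orphan G protein-coupled receptor that responds to aromatic amino acids. Its level rose from 3.22, 4.00, 5.35 and 4.37 CPM to 36.3, 39.5, 94.7 and 84.6 CPM (log2 difference 4.00, SE 0.16, edgeR adjusted p = 1.608e-13). Every member library exceeded every other one, and the nude and BALB/c members stood well above the C57J members. Chat, the gene of the enzyme that makes acetylcholine, was at 3.57, 2.58, 3.35 and 5.80 CPM in other lateral septum neurons and at 34.8, 42.6, 36.8 and 54.4 CPM in members (log2 difference 3.52, SE 0.16). Chrne, the epsilon subunit gene of the muscle-type nicotinic acetylcholine receptor, rose by 3.70 on the log2 scale.

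Tafa1, which encodes a small secreted chemokine-like protein and lies at chr6:96113154-96657198 on the plus strand, was at 524, 505, 525 and 488 CPM in other lateral septum neurons and at 3664, 4903, 4409 and 4804 CPM in members (log2 difference 3.19, SE 0.08, edgeR adjusted p = 7.451e-17). It was counted in 90.5% of members, with a median of 34 UMIs. Lama3, a laminin chain gene, rose from 23.8, 32.0, 40.2 and 33.8 CPM to 233, 307, 342 and 382 CPM (log2 difference 3.37, SE 0.08). Dock5, a Rac guanine nucleotide exchange factor gene, rose by 3.33, Moxd1, a gene of the copper monooxygenase family, by 2.95, and the noncoding genes Gm2115 and 4921539H07Rik by 3.33 and 3.01, all on the log2 scale. Grid2ip encodes delphilin, a scaffold protein of the delta glutamate receptor, and went from 9.78, 12.5, 11.7 and 10.4 CPM to 66.5, 76.99, 70.3 and 74.1 CPM (log2 difference 2.79, SE 0.10).

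The 12 largest falls by the same rule included 4 noncoding genes, led by 2310002F09Rik with a log2 difference of -3.40. Alk, a receptor tyrosine kinase gene, was at 161, 196, 206 and 230 CPM in other lateral septum neurons and at 27.1, 40.5, 42.7 and 12.8 CPM in members (log2 difference -2.77, SE 0.18, edgeR adjusted p = 2.652e-10). Tmem132d, which encodes a single-pass membrane protein, fell from 236, 231, 242 and 280 CPM to 48.7, 55.7, 56.5 and 15.3 CPM (log2 difference -2.57, SE 0.19). Its relative Tmem132c fell by 2.63, the collagen gene Col15a1 by 3.04, the hemicentin gene Hmcn1 by 2.73, the C2 domain gene Mctp2 by 3.04 and the oxysterol-binding protein gene Osbpl3 by 2.75 on the log2 scale. Drd3, the dopamine D3 receptor gene, was at 22.0, 13.7, 19.0 and 25.9 CPM in the others and at 1.55, 8.10, 4.60 and 1.82 CPM in members. For each of these genes but 2310002F09Rik and Drd3 the BALB/c members, the deepest, had the lowest level, and no member library overlapped the other lateral septum neurons. All 4 member values lay below all 4 of the others for 13.5% of tested genes and above them for 5.36%.

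**Figure D2:**
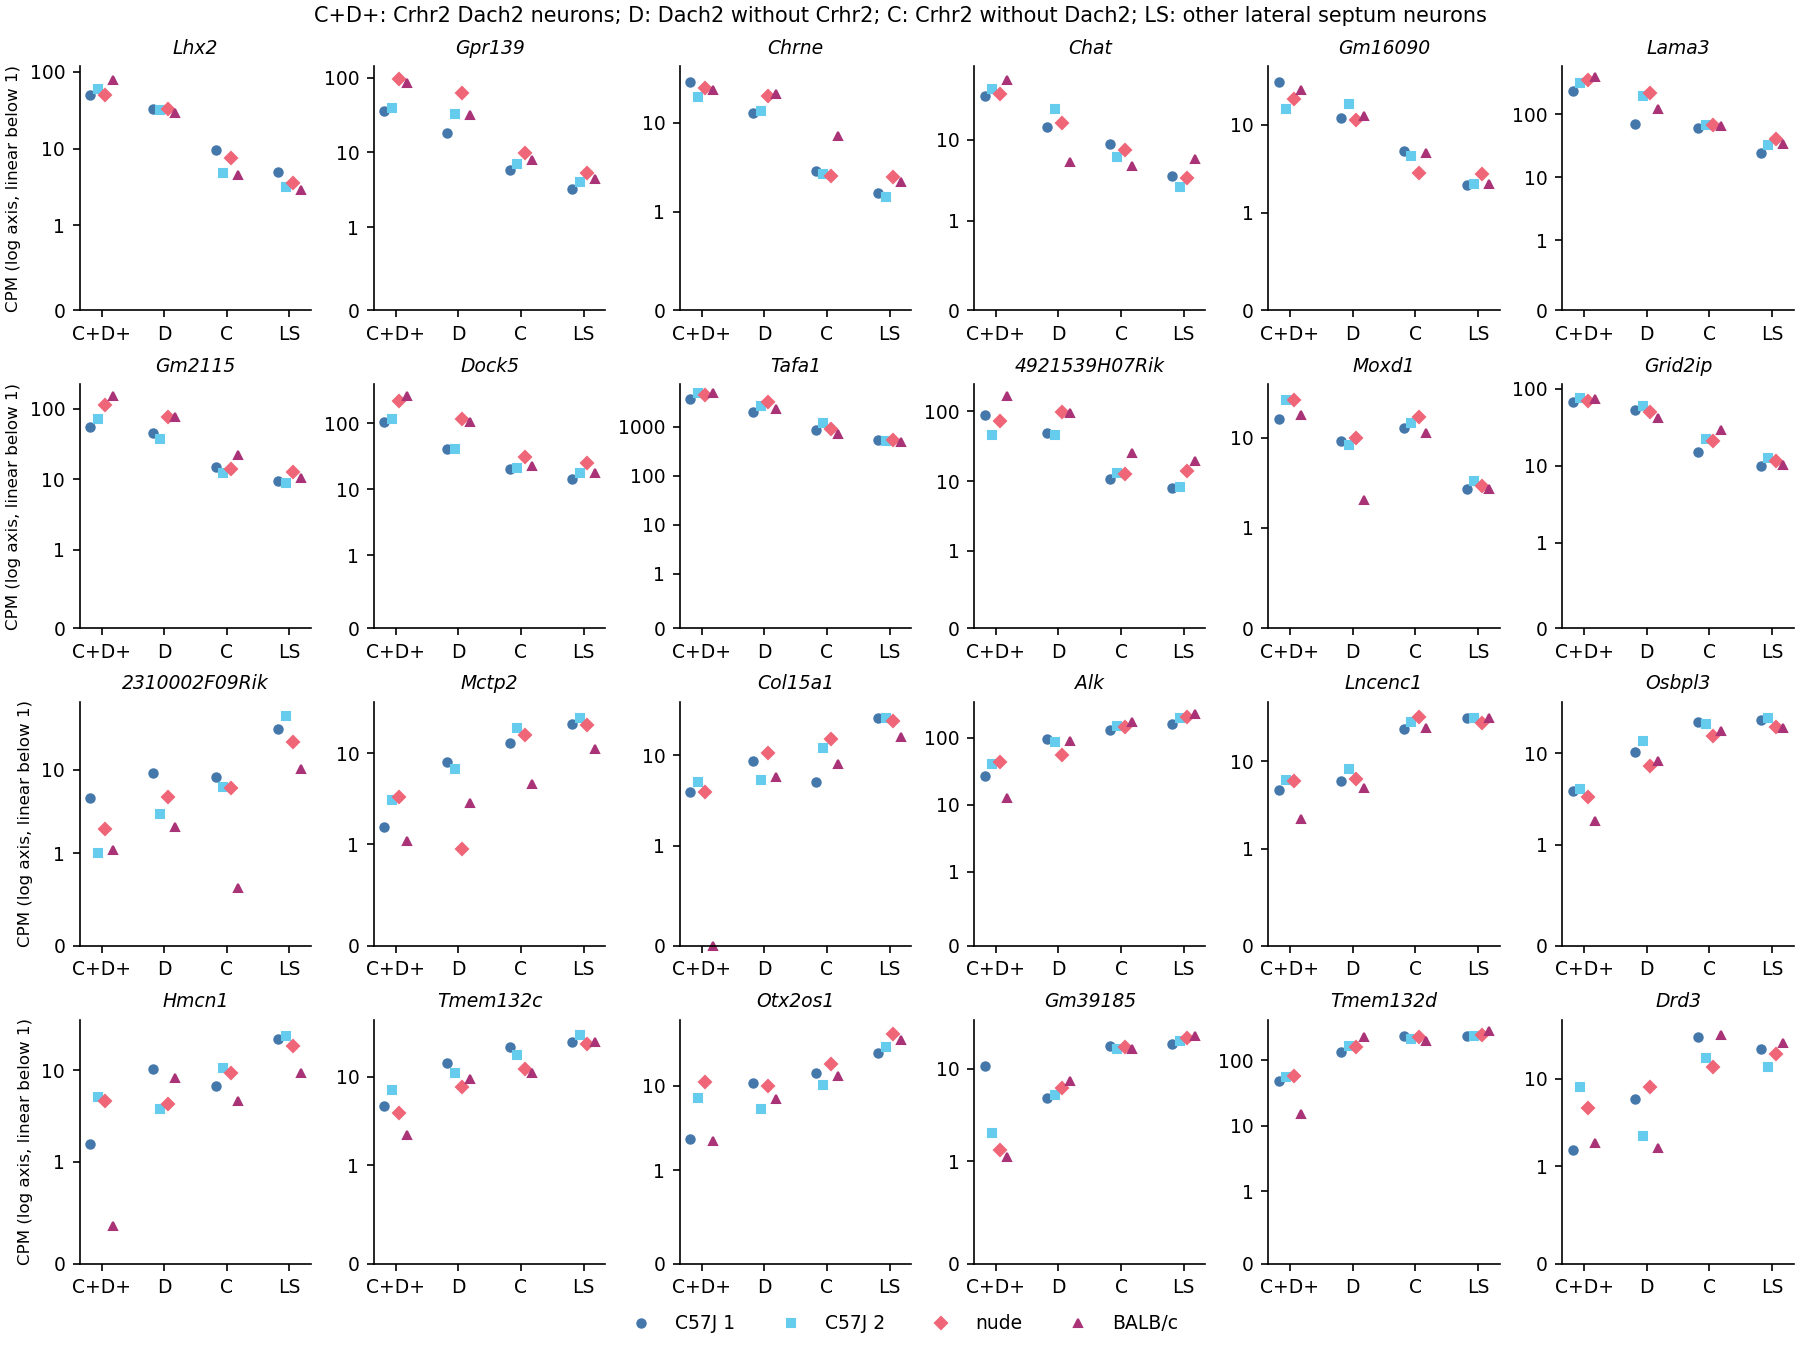
CPM (vertical axis, logarithmic above 1 and linear below) in 4 populations of the 12 genes that rose most in Crhr2 Dach2 neurons and the 12 that fell most; each symbol is 1 library. In the upper rows the C+D+ points lie above those of the other lateral septum neurons, with the Dach2 neurons without Crhr2 between them for Lhx2 and Tafa1; in the lower rows they lie below.

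Most of the receptor genes that differed were lower in the members. Of 55 tested genes for neuromodulator and hormone receptors, 4 were higher and 26 lower, beside 4.79% and 7.29% of all tested genes. Their median log2 difference was -0.83, and 4 and 15 were called without the BALB/c library. The 4 higher genes encode the mineralocorticoid receptor, the muscarinic M3 receptor, the beta-1 adrenoceptor and the cannabinoid receptor CB1. Nr3c2, the mineralocorticoid receptor gene, rose from 612, 647, 677 and 648 CPM to 1294, 1186, 1264 and 1461 CPM (log2 difference 1.08, SE 0.07, edgeR adjusted p = 1.085e-10). Nr3c1, which encodes the glucocorticoid receptor that binds the same hormones, went the other way, from 112, 96.4, 121 and 102 CPM to 72.7, 71.9, 59.8 and 56.2 CPM (log2 difference -0.68, SE 0.09, edgeR adjusted p = 8.699e-06). Chrm3 rose by 0.89, Adrb1 by 0.86 and Cnr1 by 0.78 on the log2 scale.

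Among the lower receptor genes, Esr1, the gene of estrogen receptor alpha, was at 11.1, 14.8, 17.5 and 14.6 CPM in the other lateral septum neurons and at 2.32, 1.01, 3.29 and 1.82 CPM in members (log2 difference -2.68, SE 0.28, edgeR adjusted p = 2.33e-07). Htr2c, the serotonin 2C receptor gene, fell from 465, 481, 595 and 507 CPM to 159, 138, 214 and 122 CPM (log2 difference -1.65, SE 0.08). Thrb, the thyroid hormone receptor beta gene, fell by 1.13 and Glp1r, the receptor gene of glucagon-like peptide 1, by 1.23. Agtr1a, the angiotensin II type 1a receptor gene, was not on the list but was higher, at 28.6, 44.6, 38.8 and 33.2 CPM in members against 6.15, 6.98, 7.10 and 4.46 CPM (log2 difference 2.66, SE 0.15, edgeR adjusted p = 5.321e-11).

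The other genes of the corticotropin-releasing factor system were not called. Only 3 of its 6 genes besides Crhr2 had enough counts to be tested, and none was called by edgeR or DESeq2, with 1 at an unadjusted edgeR p under 0.05. Crhr1, the gene of the other receptor of the family, was at 20.9, 8.10, 11.2 and 13.9 CPM in members and at 14.1, 13.9, 13.5 and 16.2 CPM in other lateral septum neurons, with overlapping values and a log2 difference of -0.02 (SE 0.18, edgeR adjusted p = 0.977). The ligand genes Ucn and Ucn3 had no UMI in any member, where a count of 0 allows up to 3. Of 38 genes for cAMP signalling, 2 were higher and 6 lower, beside 4.79% and 7.29% of all tested genes. Pde2a, a phosphodiesterase gene, was higher (log2 difference 0.95, SE 0.08) as was the adenylyl cyclase gene Adcy1 (0.69, SE 0.08), whereas the cyclase gene Adcy8 fell from 99.8, 98.3, 116 and 109 CPM to 20.9, 17.2, 26.9 and 21.2 CPM (log2 difference -2.21, SE 0.10, edgeR adjusted p = 2.033e-12).

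Genes for glutamate receptors moved in both directions. Of 7 tested metabotropic receptor genes, 2 were higher and 3 lower, beside 4.79% and 7.29% of all tested genes. Grm4, a group III receptor gene, was at 26.1, 26.0, 29.8 and 29.6 CPM in other lateral septum neurons and at 163, 155, 140 and 158 CPM in members (log2 difference 2.54, SE 0.08, edgeR adjusted p = 3.638e-15). Its relative Grm8 was higher by 0.96 (SE 0.07), whereas Grm7 of the same group was lower by 1.17 (SE 0.09). Of 19 tested genes on the list of ionotropic receptors, which took in the scaffold gene Grid2ip, 3 were higher and 7 lower. The AMPA receptor subunit gene Gria1 and the NMDA receptor subunit gene Grin2b were higher, with log2 differences of 0.65 (SE 0.07) and 0.98 (SE 0.06).

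Of 74 potassium channel genes, 12 were higher and 12 lower, beside 4.79% and 7.29% of all tested genes. Kcnh1, the gene of a voltage-gated channel of the ether-a-go-go family, rose from 135, 127, 105 and 115 CPM to 423, 451, 381 and 410 CPM (log2 difference 1.87, SE 0.07, edgeR adjusted p = 3.103e-14). Kcnn3, the gene of a small-conductance calcium-activated channel, rose from 164, 170, 164 and 163 CPM to 588, 515, 446 and 574 CPM (log2 difference 1.75, SE 0.07). All 3 genes for the pore of the T-type calcium channel were lower. Cacna1g fell by 1.83 (SE 0.13), Cacna1h by 2.16 (SE 0.24) and Cacna1i by 1.73 (SE 0.27) on the log2 scale. Of 24 tested genes with symbols that begin with Cacn, 1 was higher and 8 lower. The higher gene was Cacng5, and the lower ones included Cacng2 and Cacng4, so the list was not one of channel pores alone.

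Among genes for Trpc cation channels besides Trpc4, which chose the compared neurons, Trpc6 was higher by 0.75 (SE 0.10) and Trpc5 lower by 2.30 (SE 0.18). Trpc4 itself was at 891, 925, 931 and 812 CPM in those neurons. Of 15 genes for GABA-A receptor subunits, 2 were higher and 5 lower, beside 4.79% and 7.29% of all tested genes. Gabrg3 rose from 1817, 1852, 1862 and 1517 CPM to 3532, 3422, 3983 and 3774 CPM (log2 difference 1.14, SE 0.07, edgeR adjusted p = 1.471e-10), whereas Gabrb2 was lower by 1.21 (SE 0.09). The vesicular GABA transporter gene Slc32a1 did not separate the populations, at 54.1, 53.7, 44.0 and 68.2 CPM in members and 61.5, 49.0, 53.0 and 70.6 CPM in the others (log2 difference -0.01, SE 0.09, edgeR adjusted p = 0.987).

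Of 30 tested transcription factor genes of the septum and of the families related to Dach2, 8 were higher and 6 lower. Among all tested genes the shares were 4.79% and 7.29%, and 4 and 4 of the 30 were called without the BALB/c library. Sp9, a zinc finger gene of forebrain GABAergic neurons, was at 23.5, 25.1, 26.4 and 22.6 CPM in other lateral septum neurons and at 53.3, 53.7, 56.5 and 57.3 CPM in members (log2 difference 1.28, SE 0.10, edgeR adjusted p = 3.196e-09). Zic4, a zinc finger gene of the septum, rose by 1.19 (SE 0.08). Meis2, a homeodomain gene, fell from 982, 938, 935 and 913 CPM to 271, 242, 333 and 253 CPM (log2 difference -1.70, SE 0.08, edgeR adjusted p = 9.586e-13), and Eya4 and Isl1 were lower by 2.16 (SE 0.23) and 1.09 (SE 0.15). Foxp2, a forkhead factor gene, was lower, at 69.6, 123, 51.3 and 12.04 CPM against 272, 229, 180 and 186 CPM in the others.

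The immediate early genes are switched on in neurons within minutes of strong activity. Of 11 tested 8 were higher in the members and none lower, beside 4.79% and 7.29% of all tested genes. Their median log2 difference was 0.80, beside -0.03 for all genes. Npas4, whose product is a transcription factor that depends on calcium entry, was at 15.7, 16.7, 11.8 and 18.1 CPM in other lateral septum neurons and at 31.7, 39.5, 24.98 and 40.1 CPM in members (log2 difference 1.21, SE 0.12, edgeR adjusted p = 1.205e-07). Arc, which acts at synapses, rose from 19.9, 14.0, 10.9 and 20.2 CPM to 36.3, 27.4, 28.9 and 43.4 CPM (log2 difference 1.17, SE 0.13), and the zinc finger gene Egr3 from 26.7, 19.1, 19.4 and 23.4 CPM to 44.8, 33.4, 44.0 and 50.3 CPM (log2 difference 1.07, SE 0.11). For Npas4, Arc and Egr3 each of the 4 member values exceeded every value of the other neurons, as they did for 5.36% of all tested genes.

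Egr1, which had higher levels in both populations, was at 45.2, 40.0, 38.3 and 58.4 CPM and at 70.4, 60.8, 53.9 and 80.6 CPM (log2 difference 0.62, SE 0.08), so that the populations overlapped across libraries but not within one. Fosl2, Fos and Junb were also called, with log2 differences of 1.31, 0.85 and 0.80, and Nr4a3 with 0.63, which was 0.44 without the BALB/c library (edgeR adjusted p = 0.223). Fosb, Jun and Nr4a1 were not called. With every nucleus thinned to 2000 UMIs, which removed most of the counts, Npas4, Arc and Egr3 were still called and the other 5 were not. Fos lost its call when the library was not held constant (edgeR adjusted p = 0.0757). Nuclei had been released in a buffer with the transcription inhibitor actinomycin D, and how each mouse was handled before death was not compared.

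**Figure D3:**
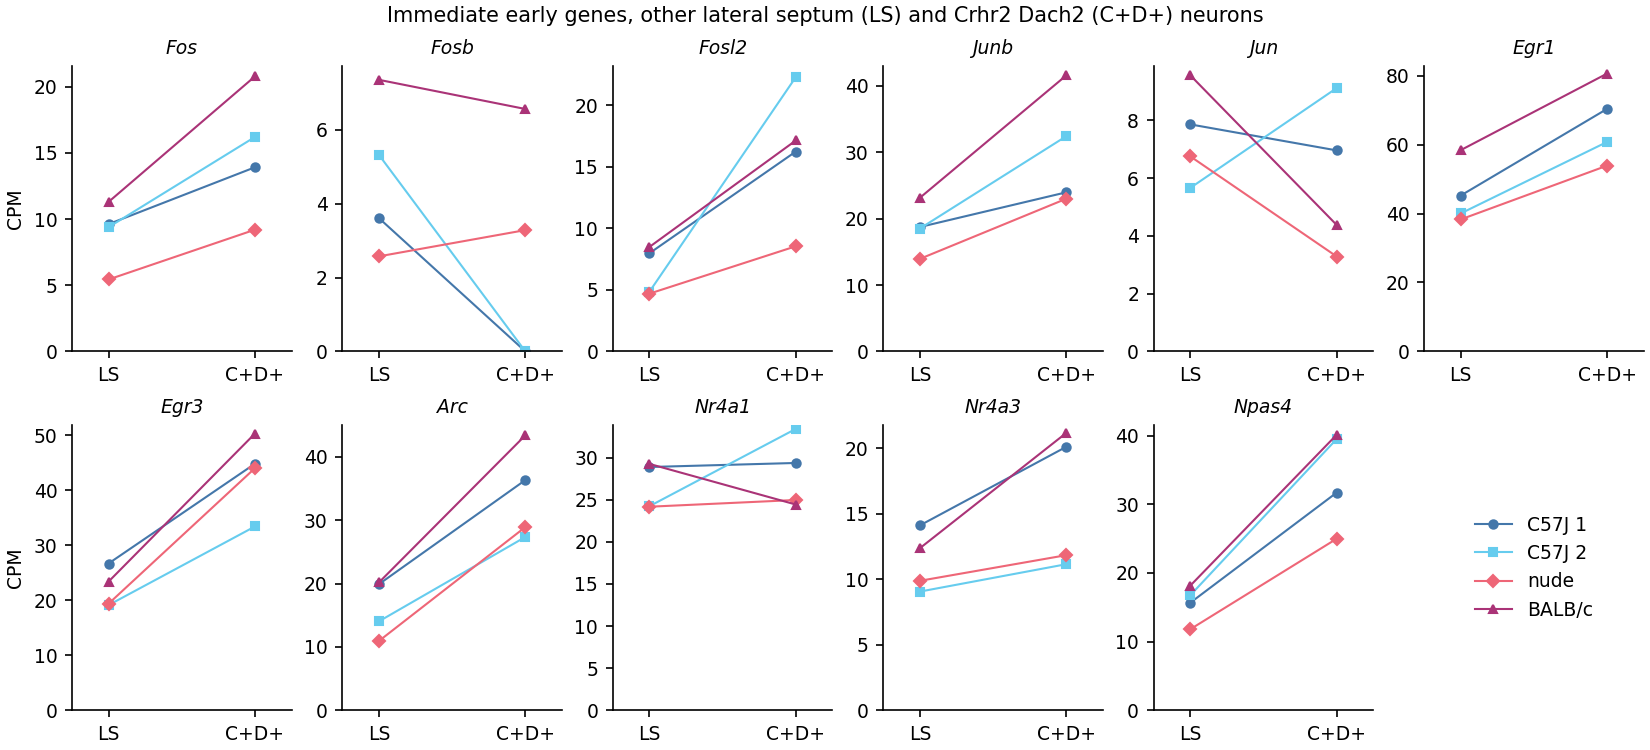
CPM (vertical axis, from 0) of the 11 immediate early genes in other lateral septum neurons (LS) and Crhr2 Dach2 neurons (C+D+); each line joins the 2 populations of 1 library. The lines rise in all 4 libraries for Npas4, Arc, Egr1, Egr3, Fos, Fosl2, Junb and Nr4a3, and take different directions for Fosb, Jun and Nr4a1.

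Of 18 tested genes on the neuropeptide list, 2 were higher and 4 lower, beside 4.79% and 7.29% of all tested genes. The list also took in neurexophilin (Nxph) and cerebellin (Cbln) genes, none of which was called. The 2 higher genes were Pnoc and Avp, and Avp was at 0, 0, 3.94 and 7.66 CPM in members, with no UMI in either C57J library. Sst, the somatostatin gene, was at 24.7, 12.2, 22.4 and 19.0 CPM in members and at 38.8, 32.0, 35.2 and 42.7 CPM in other lateral septum neurons (log2 difference -0.86, SE 0.13, edgeR adjusted p = 4.918e-05). Cartpt, the gene of the cocaine- and amphetamine-regulated transcript peptide, was at 3.09, 5.07, 1.97 and 3.65 CPM in members, and lower by 1.47 (SE 0.27). Of 8 tested genes of class I antigen presentation (5 H2 genes, B2m, Tap2 and Tapbp) none was called by edgeR or DESeq2, and 1 had an unadjusted edgeR p under 0.05.

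The members were next set against 839 nuclei with the same Dach2 limit and no Crhr2 UMI. Because 1 molecule decided most Crhr2 calls, this group can hold nuclei in which Crhr2 was expressed and missed. Its medians of 8296, 6543, 6976 and 12466 UMIs were each below those of the members. Of 10657 genes, 145 were higher in the members (1.36%) and 322 lower (3.02%), and the median log2 difference of all tested genes was 0.00. The 467 calls became 277 without BALB/c, 251 when the library was not held constant, 213 with DESeq2 and 298 with 5 or more Dach2 UMIs. Agtr1a, whose receptor is the main target of angiotensin II and which lies at chr13:30336441-30382867 on the plus strand, was the largest rise by the same rule. It was at 10.2, 11.98, 14.4 and 8.16 CPM in Dach2 neurons without Crhr2 and at 28.6, 44.6, 38.8 and 33.2 CPM in members, with no overlap (log2 difference 1.75, SE 0.18, edgeR adjusted p = 1.049e-05). A same-strand gene model overlaps Agtr1a and could share its reads.

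Chat and Slc5a7 were likewise higher where Crhr2 was counted. Chat was at 14.5, 23.96, 16.3 and 5.30 CPM without Crhr2 and at 34.8, 42.6, 36.8 and 54.4 CPM in members (log2 difference 1.70, SE 0.27, edgeR adjusted p = 0.0006469), and Slc5a7, the choline transporter gene, at 6.98, 8.24, 17.7 and 5.71 CPM and at 20.9, 29.4, 26.3 and 33.2 CPM (log2 difference 1.60, SE 0.26). Tafa1 was at 1985, 2647, 3105 and 2315 CPM in Dach2 neurons without Crhr2, above the other lateral septum neurons and below the members (log2 difference 0.89, SE 0.08). Lhx2 took the same middle position, at 32.8, 32.2, 33.1 and 29.4 CPM (log2 difference 0.99, SE 0.15). Lama3 was higher by 1.22 (SE 0.15), Gpr139 by 0.94 (SE 0.15) and the heparan sulfate proteoglycan gene Gpc4 by 1.32 (SE 0.17).

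Other genes were lower in members than in Dach2 neurons without Crhr2. Chst8, a carbohydrate sulfotransferase gene, was at 20.4, 19.5, 31.6 and 33.0 CPM without Crhr2 and at 0, 2.03, 5.92 and 0.365 CPM in members (log2 difference -3.81, SE 0.41, edgeR adjusted p = 1.529e-05). The transcription factor genes Pax6, Bnc2 and Onecut2 were lower in members by 2.98, 2.92 and 2.54, and Eya4 by 3.20. Hcrtr2, the orexin 2 receptor gene, was at 50.5, 23.96, 33.1 and 28.6 CPM without Crhr2 and at 3.09, 8.10, 11.2 and 0.730 CPM in members, and Adra1a, the alpha-1A adrenoceptor gene, at 72.5, 68.2, 30.2 and 88.9 CPM and at 16.2, 6.08, 9.20 and 8.39 CPM. Slc17a6, the gene of a vesicular glutamate transporter, was at 19.3, 12.7, 21.6 and 25.3 CPM without Crhr2 and at 6.19, 4.05, 9.20 and 3.65 CPM in members (log2 difference -1.83, SE 0.27, edgeR adjusted p = 0.0003122). Dach1, the close relative of Dach2, was lower by 1.52 (SE 0.12). Elavl2, the 1 medial septum marker tested here, was lower too (-1.57, SE 0.26), at 106, 107, 112 and 137 CPM without Crhr2 and at 27.8, 68.9, 60.5 and 14.96 CPM in members, and the part of medial septum nuclei in these differences was not tested. The groups did not overlap for Chst8, Hcrtr2, Adra1a, Slc17a6 or Dach1, and of all tested genes 5.51% were lower in members without overlap and 2.35% higher.

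Of 9 immediate early genes tested here, 5 were higher in members and none lower, beside 1.36% and 3.02% of all tested genes. Their median log2 difference was 0.74. Npas4 was at 15.6, 18.7, 11.97 and 22.4 CPM in Dach2 neurons without Crhr2 (log2 difference 1.03, SE 0.16, edgeR adjusted p = 0.0003741), Egr3 at 32.2, 22.5, 20.1 and 24.1 CPM (0.90, SE 0.15) and Arc at 16.1, 17.2, 11.97 and 30.2 CPM (0.90, SE 0.17). DESeq2 called 3 of the 9, and 2 were called when the library was not held constant, where Arc had an edgeR adjusted p of 0.09. The members were the deeper nuclei in each library, and the part of depth in these differences was not tested beyond the thinning, under which 4 genes could be tested and 1 was called.

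Members were then set against 1367 nuclei with Gad1 or Gad2, a Crhr2 UMI and none of Dach2. These were more numerous than the members. Of the nuclei with Crhr2 and a GABAergic gene that also met the St18 limit, 64.7%, 64.9%, 57.8% and 58.7% had no Dach2 UMI. Of 11716 genes, 591 were higher in the members (5.04%) and 822 lower (7.02%), and the median log2 difference of all tested genes was -0.001. Some markers of other cells were lower in members, with 1 of 5 astrocyte markers (Slc1a3, -0.73, SE 0.14), both precursor markers tested (Pdgfra, -1.05, SE 0.28, and Vcan), 1 of 3 medial septum markers (Elavl2, -1.78, SE 0.27) and 1 of 3 striatal markers (Rarb) called, and none higher. The astrocyte markers summed to 179, 157, 142 and 177 CPM in Crhr2 neurons without Dach2 against 141, 80.0, 103 and 84.6 CPM in members, and the part of such RNA in this comparison was not tested.

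Lhx2 was at 9.57, 4.86, 7.45 and 4.55 CPM in Crhr2 neurons without Dach2, in each library above its level in neurons with neither gene and below that in members (log2 difference of the members 3.35, SE 0.21, edgeR adjusted p = 2.839e-09). Tafa1 was at 853, 1198, 882 and 705 CPM there (log2 difference 2.41, SE 0.09), Grm4 at 32.2, 31.4, 21.3 and 24.2 CPM (2.63, SE 0.10) and Lama3 at 60.0, 67.1, 68.1 and 65.6 CPM (2.38, SE 0.09). Agtr1a was at 6.38, 0, 6.39 and 4.97 CPM (3.00, SE 0.31). Nr3c2, the mineralocorticoid receptor gene, was at 564, 557, 574 and 581 CPM (1.30, SE 0.06), below its 612 to 677 CPM in neurons with neither gene. The groups did not overlap for any of Lhx2, Tafa1, Grm4, Lama3, Agtr1a and Nr3c2, and of all tested genes 4.81% were higher in members without overlap and 11.9% lower.

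In the other direction, Sema3e, a semaphorin gene, was at 19.8, 19.0, 20.6 and 35.6 CPM in Crhr2 neurons without Dach2 and at 3.87, 3.04, 1.31 and 1.46 CPM in members (log2 difference -3.46, SE 0.31, edgeR adjusted p = 1.998e-07). Foxp2, a forkhead transcription factor gene that the study used as a marker of rostral lateral septum neurons, was at 333, 344, 341 and 538 CPM and at 69.6, 123, 51.3 and 12.04 CPM (log2 difference -2.75, SE 0.34). The collagen gene Col11a1 was lower in members by 2.96 (SE 0.33), Drd3 by 2.72 (SE 0.36) and Trpc5 by 2.62 (SE 0.21). Of 10 immediate early genes 3 were higher and none lower, beside 5.04% and 7.02% of all tested genes. The 3 were Npas4 (0.85, SE 0.14), Egr3 (0.76, SE 0.16) and Arc (0.73, SE 0.13).

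Across the 16 sums of the 4 populations and 4 libraries, the genes whose log2 levels most resembled that of Crhr2 were Cntnap2 with a Pearson r of 0.856, Arid5b with 0.854, Moxd1 with 0.846, Itgb8 with 0.821 and Pex5l with 0.805. Tox, Schip1, Gm3294, Nebl and Kcnab1 followed, with r between 0.784 and 0.805. Cntnap2 encodes a neurexin-like adhesion protein of axons, and Kcnab1 an auxiliary subunit of voltage-gated potassium channels. The populations had been set by Crhr2 itself and shared 4 libraries, so the values of r are a description without a test.

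The members were not uniform. A Chat UMI was found in 29 of 135, 24 of 118, 31 of 165 and 51 of 185 members, or 21.5% (95% Clopper-Pearson interval 14.9 to 29.4), 20.3% (13.5 to 28.7), 18.8% (13.1 to 25.6) and 27.6% (21.3 to 34.6). The share was 1.19%, 0.964%, 1.47% and 1.94% in other lateral septum neurons and 0.331%, 0.284%, 2.33% and 0.651% in oligodendrocyte-type nuclei. The C57J and BALB/c background libraries overlapped (log2 ratio 0.149, exact permutation p = 1). With nuclei thinned to 2000 UMIs, 8 of 32, 2 of 39, 4 of 52 and 1 of 28 had a Chat UMI, and the log2 ratio turned to -1.42 (exact permutation p = 0.667). These intervals cover counting error only.

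The 135 members with a Chat UMI were compared with the 468 without one, with the library held constant. Members without a Chat UMI can include nuclei in which Chat was expressed and missed. Of 7982 genes, 362 were higher with Chat (4.54%) and 348 lower (4.36%), and the median log2 difference of all tested genes was -0.003. Of 3 striatal markers tested, Rgs9 was called higher with Chat and Drd2 lower. The astrocyte markers summed to 91.1, 54.9, 191.5 and 106 CPM with Chat and to 156, 88.0, 82.6 and 75.2 CPM without, with none of 2 tested called. The part of such RNA in this comparison was not tested. Crhr2 itself was at 185, 207, 219 and 164 CPM with Chat and at 167, 213, 181 and 142 CPM without, with overlapping values, which are a description since Crhr2 had chosen the members. Members with Chat had medians of 8352, 9217, 8489 and 15931 UMIs and those without 8355, 7314, 8166 and 13140, and the part of depth in the split was not tested. The 24 Chat nuclei of C57J 2 stood apart from those of the other libraries, with Elavl2 at 181.6 CPM against 22.8, 13.9 and 12.1, Nxph1 at 316.7 CPM against 1184, 1072 and 999.3, and 20.8% predicted doublets. Without C57J 2, 397 genes were higher and 410 lower, and 655 of the 710 calls were made again. Without BALB/c, 193 were higher and 231 lower and 402 calls were made again, and DESeq2 called 405 genes.

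Slc5a7, the choline transporter gene that cholinergic neurons need, was at 11.2, 13.3, 18.6 and 15.2 CPM without Chat and at 52.1, 80.2, 59.2 and 74.9 CPM with Chat (log2 difference 2.15, SE 0.24, edgeR adjusted p = 1.75e-06). Trpm8, the gene of the cold and menthol receptor channel, was counted in 20 of 135 nuclei with Chat (14.8%) and in 3 of 468 without (0.641%). By library it was at 16.3, 33.8, 13.9 and 19.3 CPM with Chat and at 1.01, 2.67, 0.810 and 0 CPM without. The log2 difference over the libraries was 4.34 (SE 0.60, edgeR adjusted p = 3.018e-05), and its share in oligodendrocyte-type nuclei is not given here. Nos1, the gene of neuronal nitric oxide synthase, was at 45.5, 54.9, 24.4 and 55.6 CPM with Chat and at 4.06, 9.33, 17.0 and 12.5 CPM without (log2 difference 2.01, SE 0.33). Tafa1 had UMIs in all 135 nuclei with Chat, with a median of 73, and in 87.8% of those without, with a median of 23.5, and was at 6123, 7795, 7979 and 8424 CPM against 2897, 3990, 3578 and 3238 CPM (log2 difference 1.13, SE 0.08). The transcription factor gene Rreb1 rose by 2.12, the gene Cytip, whose product binds cytohesins, by 3.00 and the gliomedin gene Gldn by 2.44.

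Members without Chat were marked by Hunk, a gene of a kinase related to the AMP-activated family, at chr16:90386013-90499553 on the plus strand. It was at 318, 284, 263 and 472 CPM without Chat and at 26.0, 25.3, 41.8 and 48.3 CPM with Chat (log2 difference -3.27, SE 0.16, edgeR adjusted p = 5.669e-11), and had a UMI in 335 of 468 (71.6%) and 34 of 135 (25.2%). Mob3b, a gene of a kinase activator family, was at 468, 319, 340 and 567 CPM without Chat and at 42.3, 92.9, 55.7 and 52.0 CPM with Chat (log2 difference -2.97, SE 0.20). Met, the hepatocyte growth factor receptor gene, was at 44.6, 54.6, 36.5 and 73.1 CPM without Chat and at 0, 0, 13.9 and 2.42 CPM with Chat. The semaphorin gene Sema5a was lower with Chat by 2.86 (SE 0.18) and the noncoding gene 4921539H07Rik by 4.44 (SE 0.29). Chrne, whose level was so much higher in members than in other lateral septum neurons, was at 37.5, 23.99, 29.2 and 31.3 CPM without Chat and at 0, 4.22, 3.48 and 3.63 CPM with Chat.

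Several regulators and receptors named above divided along the same line, in both directions. Of 13 septal transcription factor genes tested, none was higher with Chat and 6 were lower, beside 4.54% and 4.36% of all tested genes. Zic4 was at 232, 189, 254 and 377 CPM without Chat and at 74.8, 76.0, 66.1 and 104 CPM with Chat (log2 difference -1.76, SE 0.14, edgeR adjusted p = 2.741e-08), and its relatives Zic5 and Zic1 were lower by 2.06 (SE 0.34) and 0.86 (SE 0.14). Zic1 and Zic4 overlap on opposite strands and could share reads. Dach1 was at 120, 52.0, 68.9 and 74.2 CPM without Chat and at 9.76, 16.9, 24.4 and 3.63 CPM with Chat. Chrm3 fell from 1436, 838, 980 and 1513 CPM to 319, 393, 265 and 326 CPM (log2 difference -1.90, SE 0.14), and Nr3c2 by 0.79 (SE 0.10). Of 19 tested receptor genes, 4 were lower with Chat and 2, Thrb and Nr3c1, were higher. Foxp2, which was not on the transcription factor list, was also called higher with Chat, at 101, 241, 94.0 and 9.67 CPM there.

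Other genes of the members did not pass the test between members with and without Chat. Lhx2 was at 58.6, 59.1, 62.7 and 70.1 CPM with Chat and at 47.7, 60.0, 47.0 and 82.6 CPM without (log2 difference 0.02, SE 0.19, edgeR adjusted p = 0.985). Agtr1a had a log2 difference of 0.20 (SE 0.23, edgeR adjusted p = 0.711), Gpr139 of -0.38 (SE 0.20, 0.282) and Grid2ip of -0.53 (SE 0.19, 0.0889). Slc32a1, the vesicular GABA transporter gene, was at 45.5, 21.1, 52.2 and 38.7 CPM with Chat and at 56.8, 64.0, 42.1 and 81.0 CPM without (log2 difference -0.70, SE 0.25, edgeR adjusted p = 0.0851), with overlap. Npas4 was at 35.8, 38.0, 10.4 and 59.2 CPM with Chat, and at 30.4, 40.0, 28.4 and 31.9 CPM without.

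**Figure D4:**
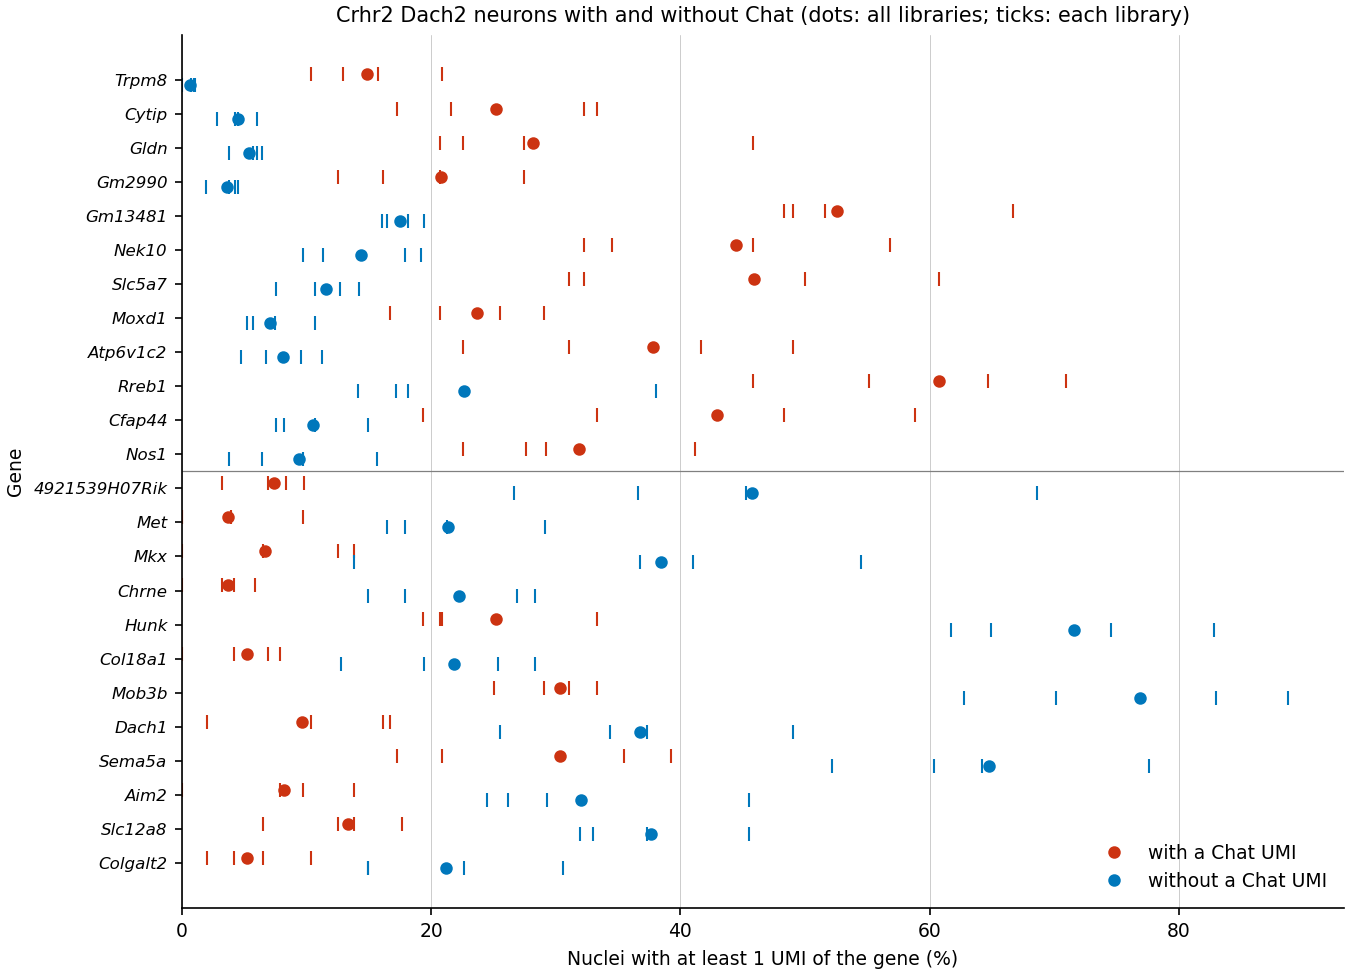
Share of Crhr2 Dach2 neurons with at least 1 UMI of each gene (horizontal axis, percent; vertical axis, genes), for nuclei with and without a Chat UMI. Dots are all libraries together and ticks single libraries; above the line are the 12 genes that rose most with Chat and below it the 12 that fell most, among them Hunk with 25.2% against 71.6%.

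Between strain backgrounds, the members of nude and BALB/c were compared with those of the C57J libraries. Of 10048 genes, 15 were higher in the BALB/c background (0.149%) and 24 lower (0.239%), and the median log2 difference of all tested genes was -0.004. The 39 became 260 without nude, 122 without C57J 2 and 85 without BALB/c, and 3 with nuclei thinned to 2000 UMIs. None of the 28 receptor genes or 9 immediate early genes tested was called by edgeR or DESeq2, and 1 of the 28 and 0 of the 9 had an unadjusted edgeR p under 0.05. Crhr2 was at 172, 212, 188 and 149 CPM in members, and in all 1442 nuclei with 3 or more Dach2 UMIs, in which Crhr2 had chosen nothing, at 70.4, 90.0, 79.2 and 78.6 CPM (log2 difference 0.01, SE 0.14, edgeR adjusted p = 0.989). In that wider group 37 of 12653 genes were higher in the BALB/c background (0.292%) and 60 lower (0.474%), and the 97 became 30 without C57J 1 and 25 without BALB/c.

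Gpr139 was at 36.3 and 39.5 CPM in C57J members and at 94.7 and 84.6 CPM in nude and BALB/c members (log2 difference 1.27, SE 0.19, edgeR adjusted p = 0.01709). Over all Dach2 nuclei it was at 25.7 and 35.3 CPM and at 76.2 and 59.7 CPM (log2 difference 1.20, SE 0.20, edgeR adjusted p = 0.02551), a call lost without C57J 1 (0.96, adjusted p = 0.172), without nude (1.01, 0.0866) and without BALB/c (1.38, 0.0671). Dock5 was at 105 and 117 CPM in C57J members and at 222 and 265 CPM in the BALB/c background (log2 difference 1.17, SE 0.16, edgeR adjusted p = 0.01078). The other lateral septum neurons had far less of both, at 14.5, 17.6, 24.9 and 17.9 CPM for Dock5 and between 3.22 and 5.35 CPM for Gpr139. Rapgef5, a gene of a Rap exchange factor, was at 348 and 298 CPM in C57J members and at 641 and 657 CPM in the BALB/c background (log2 difference 1.03, SE 0.13). Gpr139, Dock5 and Rapgef5 were not called in the test, given below, of whether the background effect differed between members and other lateral septum neurons.

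Cfap54, Fggy and Banf2 also differed between strain backgrounds in other lateral septum neurons. Cfap54, a gene of a cilium protein, was at 71.1 and 74.97 CPM in C57J members and at 270 and 252 CPM in the BALB/c background (log2 difference 1.86, SE 0.15, edgeR adjusted p = 0.0006416), and at 73.9, 80.2, 269 and 265 CPM in other lateral septum neurons. Fggy, a carbohydrate kinase gene, fell from 65.0 and 62.8 CPM to 6.57 and 2.55 CPM (log2 difference -3.92, SE 0.35, edgeR adjusted p = 0.001111), beside 64.5, 60.3, 12.3 and 10.1 CPM in the others, a fall that was larger in members by 1.42 on the log2 scale but not past the test of that difference (edgeR adjusted p = 0.1204). Banf2 had 49 UMIs in C57J members and 0 in the BALB/c background, at least 30.5-fold lower with a floor of 3 counts over the group, and it was also at 0 in the other lateral septum neurons of nude and BALB/c.

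Some differences were seen in the members and not at the same size in the other neurons. Utrn, the gene of the cytoskeletal protein utrophin, was at 34.8 and 48.6 CPM in C57J members and at 112 and 103 CPM in the BALB/c background (log2 difference 1.41, SE 0.20, edgeR adjusted p = 0.0136), but at 56.6, 55.6, 57.7 and 70.3 CPM in other lateral septum neurons. Stxbp6, a gene of a syntaxin-binding protein, fell from 79.7 and 80.0 CPM to 33.5 and 31.0 CPM (log2 difference -1.28, SE 0.19, edgeR adjusted p = 0.01654) and was at 60.5, 65.2, 59.8 and 58.9 CPM in the others. Sorl1, a sorting receptor gene, fell from 128 and 121 CPM to 46.0 and 42.3 CPM, beside 89.8, 92.7, 55.9 and 64.9 CPM. The test of this difference of differences, with 5 of 16313 genes called higher (0.0307%) and 10 lower (0.0613%), included Utrn (1.24, SE 0.20, edgeR adjusted p = 0.001181), Stxbp6 (-1.19, SE 0.18, 0.001181) and Sorl1 (-0.88, SE 0.17, 0.01909). Within batch 2 alone, where C57J 2 was the only C57J library and was assumed to vary like the others, Utrn and Stxbp6 were called again, and Sorl1 (-0.80, adjusted p = 0.109), Disp3 (1.22, 0.111), Sel1l3 (-1.07, 0.139), Sv2c (0.64, 0.279) and Grik1 (-0.51, 0.612) were not. With nuclei thinned to 2000 UMIs this test called 4 genes, with 3 of the 15 called again. Without predicted doublets it called 61 genes, with 12 of the 15 called again. DESeq2 called 0 genes in it, with 222 at an unadjusted p under 0.05, and edgeR called 0 when the library was not held constant.

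The batch label divides C57J alone. Within batch 2, which held C57J 2, nude and BALB/c, 34 of the 39 called genes could be tested and 27 were called again. C57J 2 was then the only C57J library, so the spread came from nude and BALB/c alone and C57J 2 was assumed to vary like them. The 24 genes picked between backgrounds, of which the figure does not show all, had been chosen for not overlapping between these libraries. Their direction there was thus fixed by the choice. Of the genes plotted by background, Gm2115 (0.93), Clmp (-2.11) and Mid1 (-2.53) were no longer called there. Oligodendrocyte markers differed along with the backgrounds, at 483 and 427 CPM in C57J members and at 277 and 285 CPM in the BALB/c background, with a median log2 difference of -0.86 and none of 7 called by edgeR or DESeq2 but 4 at an unadjusted edgeR p under 0.05, and their part in the strain differences was not tested.

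**Figure D5:**
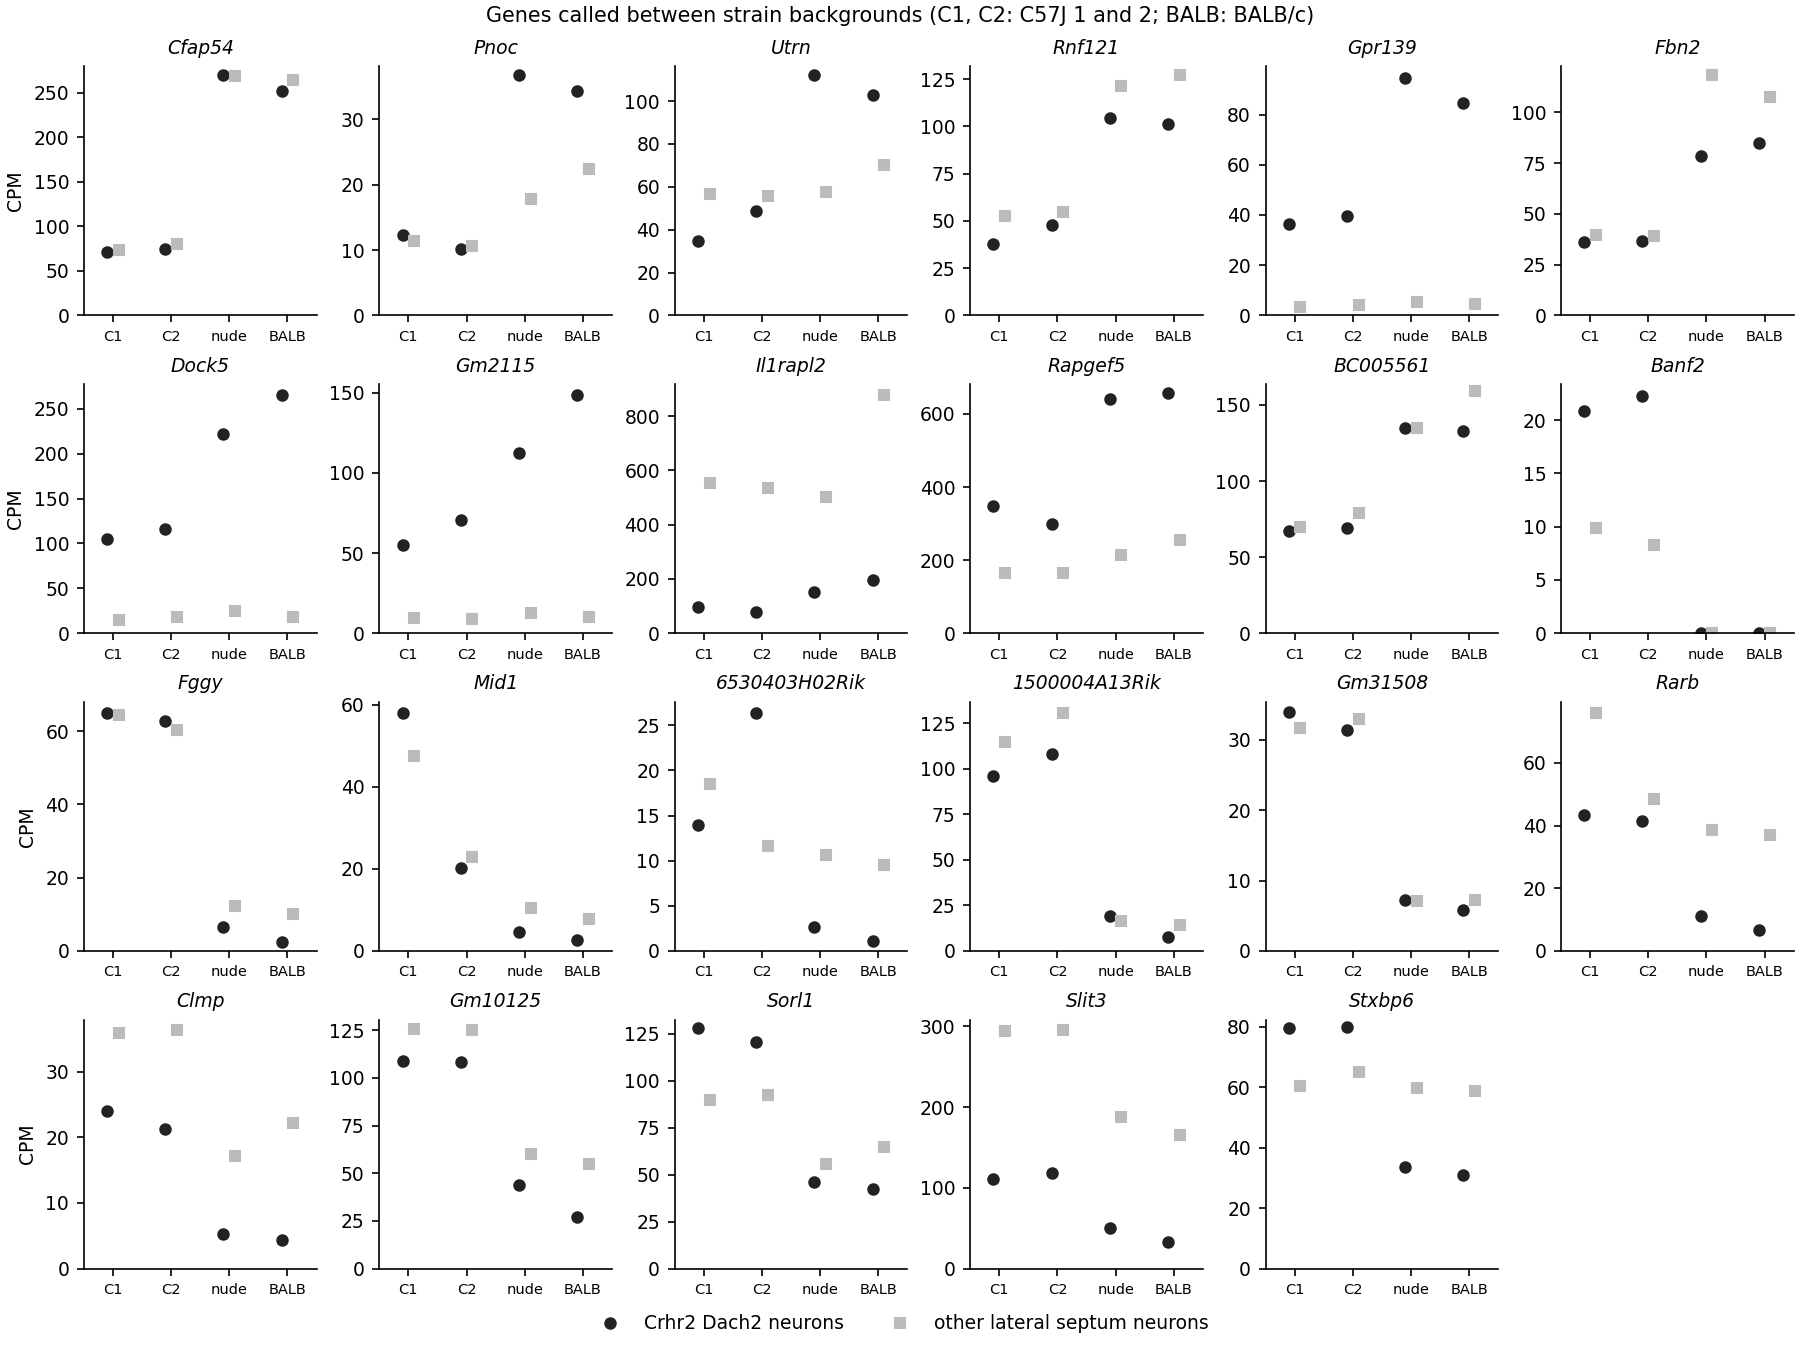
CPM (vertical axis, from 0) of 11 of the 12 genes that rose most in Crhr2 Dach2 neurons of BALB/c background and the 12 that fell most; each point is 1 library, circles for these neurons and squares for other lateral septum neurons. Circles and squares coincide nearly for Cfap54. They lie at different levels for Utrn, Gpr139 and Dock5, of which only Utrn was called in the test of the interaction.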

How the data were processed

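Nuclei from fresh-frozen lateral septum tissue were sequenced with the 10x Chromium 3' method on a NovaSeq 6000, and the authors aligned reads to mm10 with Cell Ranger 7.0.1. The deposited values were raw UMI counts per gene and barcode, without normalization, and all 4 matrices were used. The members and the gene lists were chosen with earlier results of these data known.

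Counts were summed per library and population. edgeR 4.0.16 (R 4.3.3) was fitted with TMM normalization, its default filter on low counts and Benjamini-Hochberg adjustment, with library as a block between populations and without it between backgrounds. Named genes were the 12 that rose and the 12 that fell most among those called with a mean of at least 10 CPM and a difference of 1 sign in every library (between backgrounds, without overlap), and genes of the lists. Predicted doublets (a nearest-neighbour score from simulated doublets, scikit-learn 1.9.0) were kept, and removing them was an alternative, like DESeq2 1.42.0, other size factors, no filter, adjusted p alone, thinning to 2000 UMIs, 5 or more Dach2 UMIs and leaving out each library. Nuclei with at least 10 UMIs of a set of oligodendrocyte markers, Mog and Mobp among them, and no Gad1 or Gad2 UMI served as background. Intervals are 95% Clopper-Pearson. Positions are from GENCODE vM21 for GRCm38, which matched 32158 of 32285 features. The fits were tested on simulated data. Some genes are not reported here.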

Additional observations from a re-analysis of the deposited data

Results flagged for a closer look

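In 15 genes the effect of the BALB/c background differed between Crhr2 Dach2 neurons and other lateral septum neurons by the test of the interaction (edgeR, adjusted p under 0.05), which is what singled them out. The difference of log2 effects was positive for Disp3 (1.53), Utrn (1.24), Ndnf (1.23), Sh3pxd2a (0.967) and Sv2c (0.687). It was negative for 6530403H02Rik (-2.89), Cacna2d3 (-2.04), Rarb (-1.56), Kctd8 (-1.52), Stxbp6 (-1.19), Sel1l3 (-1.12), Pdzrn4 (-1.11), Grik1 (-0.975), Sorl1 (-0.877) and Ptprd (-0.771).

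Cacna2d3, an auxiliary calcium channel subunit gene, was at 165, 153, 157 and 189 CPM in other lateral septum neurons and at 87.4, 99.3, 44.7 and 10.6 CPM in Crhr2 Dach2 neurons of C57J 1, C57J 2, nude and BALB/c. Grik1, a kainate receptor subunit gene, was at 357, 419, 379 and 401 CPM and at 445, 286, 184 and 177 CPM, and its difference was -0.51 without C57J 1 (adjusted p = 0.612). Ptprd, a receptor phosphatase gene of synapses, was at 908, 835, 890 and 767 CPM and at 1362, 1704, 948 and 707 CPM, and its difference was -0.59 without C57J 2 (adjusted p = 0.62). Rarb, which marks striatal neurons in the study, was at 43.3, 41.5, 11.2 and 6.57 CPM in Crhr2 Dach2 neurons, and its difference was -0.67 with predicted doublets removed (adjusted p = 0.89). With 1 library each of nude and BALB/c, none of these values has a check in another pool of the same strain.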

How the results depend on the processing

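Over 254 results for named genes, a gene counting once in each comparison that names it, 2631 of 2943 values kept their direction and their side of the threshold, 298 lost the call, 4 gained one and 10 changed sign. The 10 were Crhr1 between populations (0.00246 with other size factors, 0.0544 with 5 or more Dach2 UMIs, 0.00557 with no block for the library, and 0.0806, 0.0381 and 0.0437 without C57J 2, nude and BALB/c, with -0.247 without C57J 1) and Crhr2 between backgrounds (-0.0178 with doublets removed, -0.173 thinned, -0.0536 with 5 or more Dach2 UMIs and -0.165 without C57J 1, with 0.196 without C57J 2). The log2 ratio of Chat shares changed sign with 2 or more Crhr2 UMIs (-0.062), thinned (-1.42) and without BALB/c (-0.154), and was 0.399 without nude. Of the settings behind the 2943 values, adjusted p alone only dropped the fold limit, so a called gene kept its call by construction. The genes of largest rise and fall had been picked for 1 sign in every library or for no overlap. Their direction with a library left out was thus largely set by the choice.

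Thinned to 2000 UMIs, which leaves fewer genes to test, they were 1215 against other lateral septum neurons, 221 against Dach2 neurons, 793 against Crhr2 neurons, 286 by Chat, 3 between backgrounds, 23 over all Dach2 nuclei and 4 for the interaction. DESeq2 called 213 against Dach2 neurons, 902 against Crhr2 neurons, 405 by Chat and 0 for the interaction. On the adjusted p alone there were 2971, 757 and 2151 for the 3 comparisons of populations. With no filter there were 724 against Dach2 neurons, 203 between backgrounds, 396 over all Dach2 nuclei and 51 for the interaction. With 5 or more Dach2 UMIs there were 298 against Dach2 neurons, and doublets removed gave 61 for the interaction.

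Leaving out 1 library at a time gave 1499 to 1894, 277 to 558 and 1124 to 1416 for the 3 comparisons of populations, the lowest each time without BALB/c, 424 to 807 by Chat, 55 to 260 between backgrounds, 25 to 94 over all Dach2 nuclei and 9 to 149 for the interaction. Without nude the count was 260 between backgrounds and 149 for the interaction, and over all Dach2 nuclei it was 30 without C57J 1 and 25 without BALB/c. Of the 1970 calls against other lateral septum neurons, 1401 were called again without BALB/c.

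With no replicate block for the library, the counts were 1511, 251 and 1046 for the 3 comparisons of populations, 493 by Chat and 0 for the interaction. No paired analysis was possible between backgrounds, since each library was a separate pool of mice and the labels pair none of them.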
